A study of Homo sapiens with 24 samples.

Results

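The middle of a chase of metabolically labelled RNA was examined, 2 h and 4 h after labelling ended, in cells with guides against CNOT3 (sgCNOT3) and in cells with non-targeting guides (sgNT). The 8 libraries of these chase times, 4 from sgCNOT3 and 4 from sgNT, were chosen out of 24 by their labels. Genes were kept when their T-to-C conversion was above 0 in all 8 libraries, which held for 10264 of 19798 genes in the table (51.8%). Of the rest, 4785 genes were listed at 0 in all 8 libraries and 4749 in some of them.

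All samples were HEK293T cells, a human embryonic kidney line, transduced with the Cas9 vector lentiCRISPR_v2 and selected with puromycin. The sgCNOT3 cells received the guide sgCNOT3-1 or sgCNOT3-2 and the sgNT cells sgNT1 or sgNT2, and the labels do not say which guide each library had. If replicates 1 and 2 carried different guides, their scatter includes the difference between guides, which cannot be told apart here from that between replicates. Cells took up 4-thiouridine (75 µM, medium renewed every 3 h) over 24 h, then received 10 mM UTP as the chase, and 3' end libraries were made after 0, 1, 2, 4, 8 and 12 h (2 libraries per genotype and time). No source says whether replicates came from separate cultures. The p-values therefore reflect the scatter of these libraries alone, and part or all of it may be technical. In a bulk population a change in every cell and a change in a share of the cells cannot be told apart.

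The guides are shown because they define the groups, in lower case with the adjacent PAM, where one exists in the genome, in capitals. Both CNOT3 guides matched the GRCh38 assembly exactly once, in coding exons of CNOT3 on chromosome 19, on the plus strand at chr19:54143665-54143684 (exon 5 of 18) and on the minus strand at chr19:54145702-54145721 (exon 8 of 18). The non-targeting guides had 0 exact matches.
CNOT3-sgRNA #1: gagggaccaaatcaagacatGGG
CNOT3-sgRNA #2: tcttgcggatggcgtcaacgAGG
NT sgRNA #1: atcgtttccgcttaacggcg
NT sgRNA #2: tagagatatccgatcgtggt

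CCR4-NOT is the main deadenylase complex of the cytosol. It shortens the poly(A) tail of mRNAs, which is commonly the first step of their decay, and CNOT3 is one of its core subunits, which can also contact the ribosome. In SLAM-seq, 4-thiouridine built into new RNA is alkylated and read as C where the genome has T. During a chase with excess uridine the labelled molecules are lost by decay while new molecules carry no label, so the conversion of a gene falls as its mRNA is replaced. The conversion at any time therefore holds both the share that was labelled at the start and what was lost since. It measures neither the amount of RNA nor editing at the guide sites, and it holds no expression level from which the cell line could be checked.

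The sgCNOT3 libraries of the middle chase did not replicate well. Over the genes tested, the median conversion at 2 h was 29.2% and 19.1% in the sgCNOT3 libraries (replicates 1 and 2), against 23.1% and 23.8% in the sgNT libraries. At 4 h it was 21.1% and 17.0% in sgCNOT3, against 22.5% and 21.6% in sgNT. At 2 h the sgNT pair thus lay between the sgCNOT3 libraries, and at 4 h both sgCNOT3 libraries lay below the sgNT pair. Averaged over both times, the library medians of sgCNOT3 minus sgNT differed by -1.15 percentage points (exact permutation test within chase times, two-sided, p = 0.78, where the smallest possible value was 0.056). Without sgCNOT3 2 h replicate 1 the difference was -3.68 percentage points, and without sgCNOT3 2 h replicate 2 it was 1.39. No direction of the typical gene can therefore be given for these hours.

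**Figure D1:**
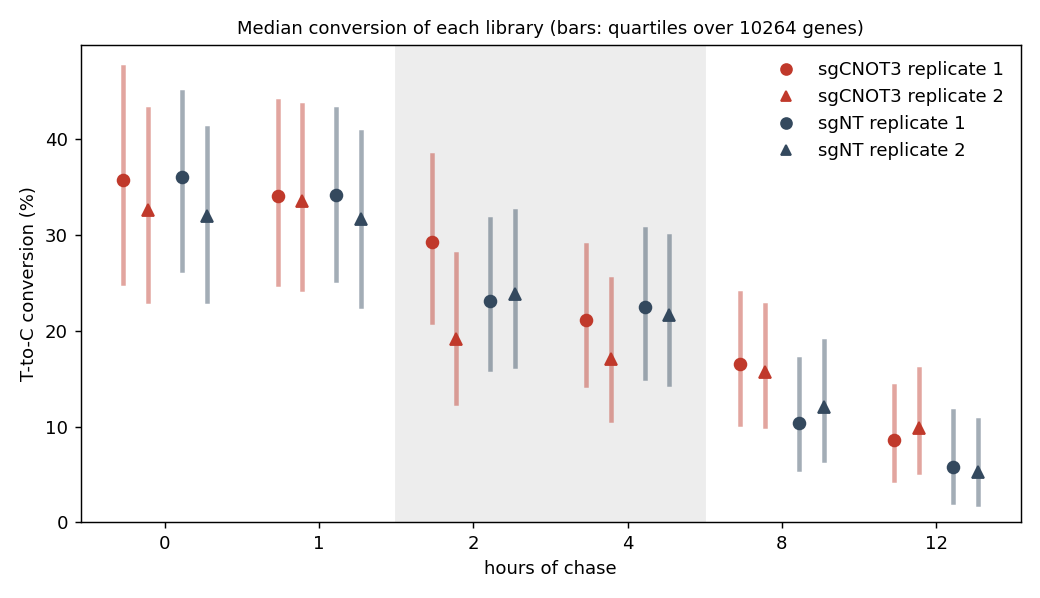
Median T-to-C conversion (%) of each of the 24 libraries over 10264 genes against hours of chase, with bars from the lower to the upper quartile over genes; sgCNOT3 in red left of sgNT in dark blue, circles for replicate 1 and triangles for replicate 2, the middle chase shaded. At 2 h the sgCNOT3 medians were 29.2% and 19.1%, on either side of the sgNT medians of 23.1% and 23.8%.

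Across genes, which are not independent replicates, the Spearman correlation of the replicates was 0.35 in sgCNOT3 at 2 h and 0.55 in sgCNOT3 at 4 h, against 0.69 in sgNT at 2 h and 0.68 in sgNT at 4 h. In the other 8 groups it was between 0.71 and 0.78. The sgCNOT3 2 h replicate 1 ranked its genes most like the sgCNOT3 libraries of 1 h (0.67 and 0.65). The sgCNOT3 2 h replicate 2 was most like sgCNOT3 4 h replicate 2 (0.70), and that library in turn was next most like sgCNOT3 8 h replicate 2 (0.64). The replicate pairs differed by more than 2-fold in 28.6% of genes in sgCNOT3 at 2 h and in 20.9% at 4 h, against 11.0% and 12.7% in sgNT. Pairs of the late chase, where conversions are low, also reached 14.9% to 28.3%. Whether libraries were exchanged between times was not tested, and the groups stand as labelled in all tests.

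The gap between the sgCNOT3 replicates differed between short-lived and long-lived mRNAs. The genes were split into quartiles by the share of the 0 h conversion that sgNT cells had left at 8 h, from libraries that the middle chase does not use. In the quartile with the least left (median 11.4%), sgCNOT3 2 h replicate 1 exceeded replicate 2 by a median of 0.87 on the log2 scale, with conversions of 31.9% and 16.1%. The gaps were 0.59, 0.24 and 0.01 in the following quartiles. At 4 h the gaps in sgCNOT3 were 0.44, 0.23, 0.09 and -0.02, from the least to the most left. The sgNT pairs differed by at most 0.09 in any quartile. Taken without sign, the median gap in the quartile with the least left was 0.91 at 2 h and 0.62 at 4 h in sgCNOT3, against 0.37 and 0.45 in sgNT. In the quartile with the most left it was 0.20 at both times in sgCNOT3, against 0.18 at both times in sgNT. The sgCNOT3 pairs thus exceeded the sgNT pairs most in the short-lived class. Of 383 genes called in the comparison of the genotypes that follows, 15, 44, 117 and 206 were in these quartiles, so findings for the middle chase rest mainly on stable mRNAs.

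**Figure D2:**
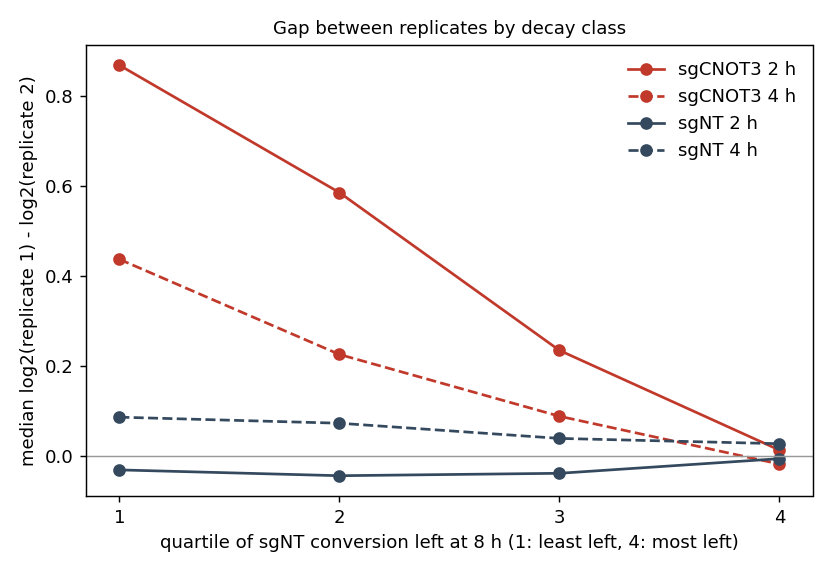
Median difference between replicate 1 and replicate 2 on the log2 scale, within 4 classes of genes from least (1) to most (4) conversion left at 8 h in sgNT. Solid lines are 2 h and dashed lines 4 h, sgCNOT3 in red and sgNT in dark blue; the sgCNOT3 gap was 0.87 at 2 h and 0.44 at 4 h in class 1, and 0.01 and -0.02 in class 4.

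The main comparison asked which mRNAs differed between sgCNOT3 and sgNT in the middle chase, with chase time as a covariate (limma on log2 conversion with a pseudocount of 0.34 percentage points). A gene was called when its Benjamini-Hochberg adjusted p was below 0.05. Conversion was called different for 383 of 10264 genes (3.73%), higher in sgCNOT3 for 110 (1.07%) and lower for 273 (2.66%). This fit took the 4 libraries of each genotype as independent. Same-numbered sgCNOT3 libraries of 2 h and 4 h deviated together (correlation of replicate 1 minus replicate 2 across genes 0.32), so its p-values may be too small. With the replicate number as a block 99 genes passed, 16 higher and 83 lower. The median over all genes was -0.07 on the log2 scale. Both sgCNOT3 libraries lay above both sgNT libraries at 2 h and again at 4 h for 882 genes (8.59%), and below them for 1161 genes (11.3%).

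The called genes were those whose replicates were tight. The median size of the gap between sgCNOT3 replicates at 2 h was 0.085 for the genes called higher and 0.14 for those called lower, against 0.45 over all genes. For 63.1% of all genes tested, the gap at 2 h was larger than the difference between the genotypes. For 0 of the 383 called genes was it larger, at 2 h or at 4 h. The test itself favours tight genes, so this describes the calls and does not support them.

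How far the 383 calls held without single libraries was uneven. Without sgCNOT3 2 h replicate 1, 296 genes passed (43 higher and 253 lower), of which 216 were among the 383. Without any other of the 8 libraries, sgNT libraries included, 0 genes passed, with 1651 to 1822 at an unadjusted p under 0.05 (limma). The smallest adjusted p was 0.015 with 8 libraries and between 0.051 and 0.097 in those 7 fits. All 383 genes kept their direction and an unadjusted p under 0.05 without each of the 8 libraries. With both sgCNOT3 libraries numbered 1 left out 103 genes passed (0 higher and 103 lower), and with both numbered 2 left out 0 passed (1856 unadjusted).

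At single times the 8 libraries gave no calls. At 2 h 0 genes passed (0%, with 1276 at an unadjusted p under 0.05), at 4 h 0 passed (0%, 1747 unadjusted) and for 0 did the difference change between 2 h and 4 h (0%, 573 unadjusted, limma). At 4 h the median difference over all genes was -0.17 on the log2 scale, and at 2 h it was 0.02.

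A larger number of calls was found when the spread was estimated from all 24 libraries, which assumes that the middle chase varies like the other times. Then 1211 genes were called (11.8%), 460 higher (4.48%) and 751 lower (7.32%), and 370 of the 383 were among them. Of the 1211, 640 (6.24% of genes tested), 207 higher (2.02%) and 433 lower (4.22%), were also called without each of the 8 libraries in turn. Of the 383, 325 were among these, and such genes are described here as held without each library. With the middle-chase spread, by contrast, genes passed only in the fit without sgCNOT3 2 h replicate 1. When every library was centred on its median, 0 genes passed in the 8 libraries (1374 unadjusted). The median over all genes was then 0.03 on the log2 scale.

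CNOT3 itself did not pass. Its conversion at 2 h was 67.7% and 14.5% in sgCNOT3, against 16.3% and 26.1% in sgNT. At 4 h it was 11.9% and 16.7% in sgCNOT3, against 29.3% and 16.7% in sgNT. The sgCNOT3 pair at 2 h enclosed both sgNT values, and the log2 difference was -0.02 ± 0.54 (SE, adjusted p = 0.99). The sign changed with the library left out, and no direction can be given.

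Of 12 tested genes of the CCR4-NOT complex, 0 were called (0%, against 3.73% of all genes). With the spread of 24 libraries CNOT11 was higher (log2 difference 0.32 ± 0.096, SE) and the scaffold CNOT1 lower (-0.50 ± 0.15), but neither held without each library. Each was 8.33% of the list, against 4.48% of all genes higher and 7.32% lower with that spread. Both were named because the count was small. Of 46 other decay factors, LSM4, of the Lsm ring that binds mRNA ends, was higher, and UPF3B, of nonsense-mediated decay, was lower. That is 2.17% in each direction, against 1.07% of all genes higher and 2.66% lower. LSM4 had 26.8% and 27.0% at 2 h in sgCNOT3, against 16.9% and 17.4% in sgNT. At 4 h it had 23.8% and 23.5% in sgCNOT3, against 14.5% and 15.0% in sgNT (log2 difference 0.65 ± 0.13, SE, adjusted p = 0.042). The LSM4 groups did not overlap. LSM4 held without each library as defined above, but with the middle-chase spread it passed in 0 of the 8 fits that left out a library. UPF3B did not hold (log2 difference -0.44, adjusted p = 0.026).

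Of the called genes 273 of 383 had lower conversion in sgCNOT3. HNRNPH1, a splicing regulator (chromosome 5, 179614178 to 179634784, minus strand), had 11.9% and 13.2% at 2 h in sgCNOT3, against 41.0% and 41.6% in sgNT. At 4 h HNRNPH1 had 10.4% and 10.6% in sgCNOT3, against 32.6% and 33.1% in sgNT. All 4 sgCNOT3 values lay below all 4 sgNT values (log2 difference -1.65 ± 0.13, SE, adjusted p = 0.015). NUP93, a scaffold of the nuclear pore, had 13.6% and 12.3% at 2 h in sgCNOT3, against 37.7% and 33.3% in sgNT. At 4 h NUP93 had 9.24% and 9.99% in sgCNOT3, against 33.2% and 32.6% in sgNT. The groups were again apart (log2 difference -1.58 ± 0.15, SE, adjusted p = 0.015). RPA1, which binds single-stranded DNA, had 13.4% and 17.8% at 2 h in sgCNOT3, against 40.4% and 42.4% in sgNT, and a log2 difference of -1.38 ± 0.13 (SE, adjusted p = 0.015).

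HIBADH, a mitochondrial enzyme of valine breakdown, had 18.8% and 14.8% at 2 h in sgCNOT3, against 49.4% and 63.4% in sgNT. At 4 h HIBADH had 13.2% and 11.8% in sgCNOT3, against 40.2% and 34.2% in sgNT (log2 difference -1.63 ± 0.15, SE, adjusted p = 0.015). Its sgNT values at 2 h were further apart than its sgCNOT3 values, yet the groups did not overlap. At 0 h they did overlap, with 22.1% and 52.4% in sgCNOT3, against 52.9% and 44.2% in sgNT. The other named genes with the lowest test statistics were SFPQ, a nuclear RNA-binding protein (-1.05 on the log2 scale), ACTG1, a cytoplasmic actin (-0.98), CD9, a membrane tetraspanin (-0.91), and RBX1, of cullin ubiquitin ligases (-0.57). With CCT8 and CCT4, described next, these 10 genes all held without each library as defined above. With the middle-chase spread each passed in only 1 of the 8 fits that left out a library. Over the 8 fits that left out a library the difference of HNRNPH1 ran from -1.68 to -1.62, and that of HIBADH from -1.70 to -1.54.

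Subunits of TRiC, the ring chaperone that folds actin and tubulin, were lower together. Of 14 tested TRiC and prefoldin genes, 7 were lower and 0 higher, and all 7 held without each library. CCT8 had 20.6% and 20.8% at 2 h in sgCNOT3, against 44.3% and 46.6% in sgNT. At 4 h CCT8 had 21.9% and 21.3% in sgCNOT3, against 41.8% and 41.5% in sgNT (log2 difference -1.03 ± 0.083, SE, adjusted p = 0.015). The sgCNOT3 libraries that disagreed over the typical gene were close for CCT8. CCT4 had 25.9% and 27.8% at 2 h in sgCNOT3, against 45.1% and 48.3% in sgNT (-0.81 ± 0.068 over both times, SE, adjusted p = 0.015). CCT2, CCT3, CCT5, CCT6A and CCT7, named to complete the count, had log2 differences of -0.52, -0.83, -0.69, -0.38 and -0.97. These 7 were 50% of the list, against 2.66% of all genes called lower. The median of the 14 was -0.27, against -0.07 over all genes, and it was -0.17 after centring.

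Among TRiC substrates and their relatives, the tubulins were split. Of 15 tested genes of tubulins and the gamma-tubulin complex 1 was lower (TUBB, -0.39 ± 0.058, SE, adjusted p = 0.023) and 1 higher (TUBB4B, 0.53 ± 0.090, SE, adjusted p = 0.032). A single gene is 6.67% of this short list, against 2.66% of all genes lower and 1.07% higher. TUBB4B had 41.9% and 53.5% at 2 h in sgCNOT3, against 32.9% and 31.2% in sgNT. Both sgCNOT3 values of TUBB4B were above the sgNT pair although they differed by more than that pair did.

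**Figure D3:**
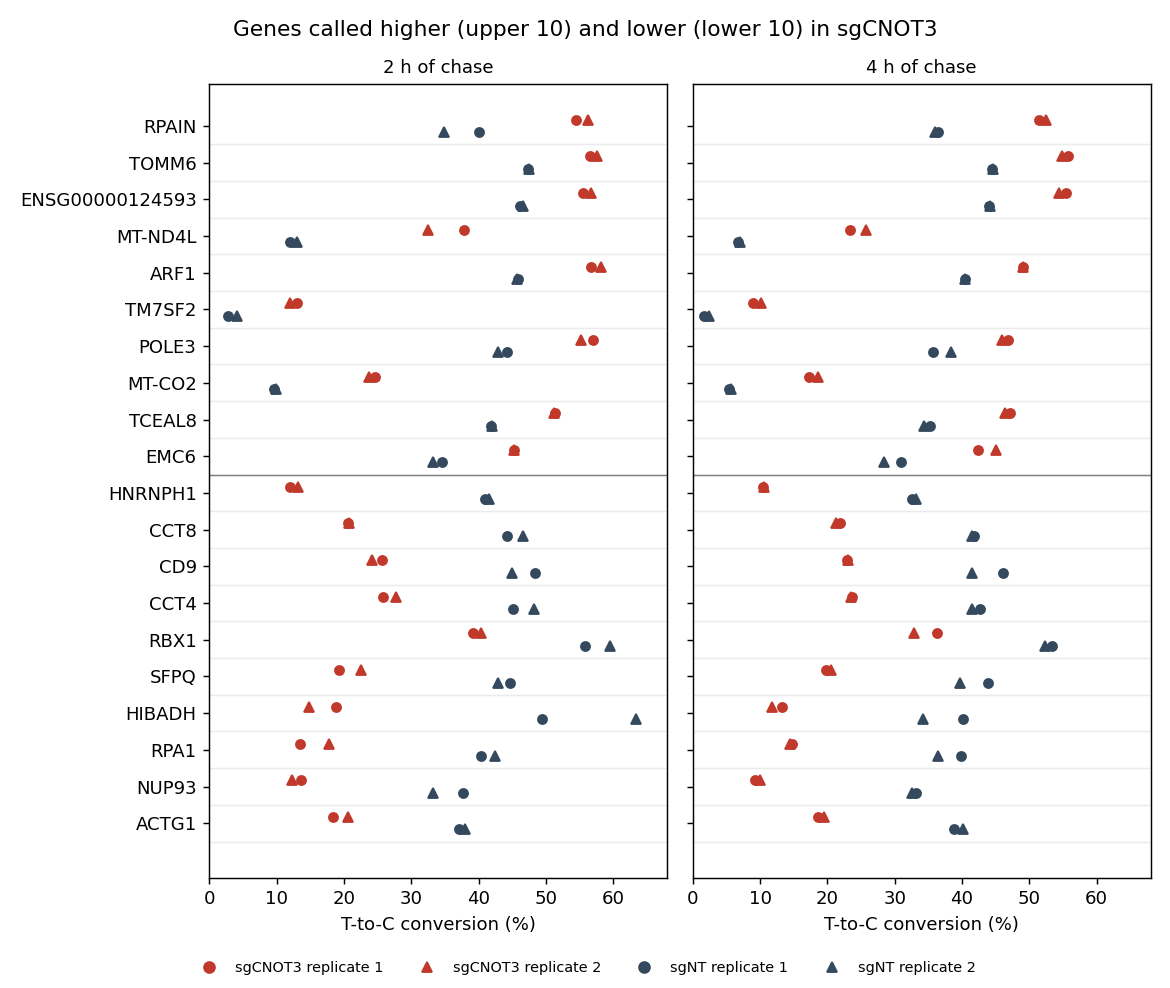
T-to-C conversion (%) in each of the 8 libraries for the 10 genes with the highest and the 10 with the lowest test statistics, at 2 h (left panel) and 4 h (right panel); sgCNOT3 in red above sgNT in dark blue within each row, circles for replicate 1 and triangles for replicate 2. In every row the sgCNOT3 points lie on 1 side of the sgNT points, a requirement of the rule that chose these genes, for example 11.9% and 13.2% against 41.0% and 41.6% for HNRNPH1 at 2 h.

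Of 29 tested hnRNP genes, which package and splice nuclear RNA, 9 were lower (31.0%, against 2.66% of all genes) and 1 higher (3.45%, against 1.07%), with a median of -0.33, and of -0.23 after centring. All 9 held without each library. With the spread of 24 libraries 12 were lower (41.4%, against 7.32% of all genes) and 2 higher (6.90%, against 4.48%). HNRNPM had 15.1% and 17.7% at 2 h in sgCNOT3, against 35.8% and 37.2% in sgNT. At 4 h HNRNPM had 13.8% and 17.0% in sgCNOT3, against 33.4% and 33.0% in sgNT (log2 difference -1.12 ± 0.13, SE, adjusted p = 0.019). Lower genes beside HNRNPH1 and HNRNPM included HNRNPA2B1, HNRNPC, HNRNPD, HNRNPH3, HNRNPK and HNRNPU. PTBP1, a repressor of exons, was the higher one, with 37.3% and 37.8% at 2 h in sgCNOT3, against 30.7% and 30.2% in sgNT (log2 difference 0.37 ± 0.071, SE, adjusted p = 0.042). Named as the exception, PTBP1 held without each library too.

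Of 21 SR splicing factors, 3 were lower (14.3%, against 2.66% of all genes) and 0 higher. SRSF1 had 18.0% and 17.9% at 2 h in sgCNOT3, against 31.0% and 34.9% in sgNT (-0.95 ± 0.12 over both times, SE, adjusted p = 0.019). SRSF7 had a log2 difference of -0.46 ± 0.073 (SE, adjusted p = 0.027), and SRSF3 was the other lower member. The median of the SR list was -0.04 and turned to 0.06 after centring, so the median gave the list no direction. With the spread of 24 libraries 6 were lower (28.6%, against 7.32% of all genes) and 1 higher (4.76%, against 4.48%). Of these, 4 and 0 held without each library.

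Of 64 translation factors 10 were lower (15.6%, against 2.66% of all genes) and 1 was higher (1.56%, against 1.07%). EIF3D, of the initiation factor that binds the small ribosomal subunit, had 18.4% and 18.5% at 2 h in sgCNOT3, against 34.4% and 34.2% in sgNT. At 4 h EIF3D had 16.9% and 15.5% in sgCNOT3, against 30.7% and 28.9% in sgNT (log2 difference -0.87 ± 0.11, SE, adjusted p = 0.019). EEF1E1, of the tRNA synthetase complex, was lower by less (-0.38 ± 0.046, SE, adjusted p = 0.019). The exception was EIF3G, which was higher. The list had a median of -0.24, and of -0.14 after centring. With the spread of 24 libraries 19 were lower (29.7%, against 7.32% of all genes) and 4 higher (6.25%, against 4.48%), of which 15 and 1 held without each library.

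Of 36 proteasome subunits, 6 were lower (16.7%, against 2.66% of all genes) and 3 higher (8.33%, against 1.07%). PSMA1, of the core ring, had 22.1% and 23.4% at 2 h in sgCNOT3, against 39.6% and 45.3% in sgNT (-0.98 ± 0.10 over both times, SE, adjusted p = 0.015). PSMD3, of the regulatory lid, had 14.9% and 16.8% at 2 h in sgCNOT3, against 29.0% and 29.0% in sgNT (-0.95 ± 0.14 over both times, SE, adjusted p = 0.021). PSMA1, like SRSF1, EEF1E1 and MRPS5, overlaps another gene on the same strand, which makes its values less certain. The proteasome was not uniform. PSMC3, an ATPase of the regulatory base and named as 1 of the 3 that were higher, had 22.0% and 19.9% at 2 h in sgCNOT3, against 10.9% and 10.1% in sgNT. With the spread of 24 libraries 17 subunits were lower (47.2%, against 7.32% of all genes) and 3 higher (8.33%, against 4.48%), of which 12 and 3 held without each library.

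Of 34 chaperones of the heat shock and endoplasmic reticulum systems, 3 were lower (8.82%, against 2.66% of all genes) and 0 higher, namely HSPD1, HSPA9 and HSP90AB1. HSPD1, the mitochondrial chaperonin, had 15.1% and 16.4% at 2 h in sgCNOT3, against 30.9% and 29.8% in sgNT (log2 difference -0.93 ± 0.13, SE, adjusted p = 0.021). HSPA9, the mitochondrial Hsp70, had a log2 difference of -0.87 ± 0.12 (SE, adjusted p = 0.021). The median of the list was -0.02 and 0.08 after centring, so the lower members did not stand for its typical gene. With the spread of 24 libraries 7 were lower (20.6%, against 7.32% of all genes) and 2 higher (5.88%, against 4.48%). Of these, 7 and 0 held without each library.

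The genes with higher conversion in sgCNOT3 were led by RPAIN, which carries replication protein A into the nucleus. RPAIN had 54.5% and 56.3% at 2 h in sgCNOT3, against 40.1% and 34.8% in sgNT. At 4 h RPAIN had 51.4% and 52.5% in sgCNOT3, against 36.4% and 35.9% in sgNT (log2 difference 0.54 ± 0.054, SE, adjusted p = 0.015). TOMM6, a small subunit of the mitochondrial import pore, had 56.5% and 57.6% at 2 h in sgCNOT3, against 47.4% and 47.5% in sgNT (0.29 ± 0.029 over both times, SE, adjusted p = 0.015). ENSG00000124593, which overlaps TOMM6 and PRICKLE4 on the same strand, had nearly the same values (0.29 ± 0.030, SE), and reads of the pair cannot be told apart.

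Smaller increases with tight replicates were found for ARF1, a GTPase of the Golgi (log2 difference 0.30), POLE3, a histone-fold subunit of a DNA polymerase (0.34), TCEAL8 (0.36) and EMC6, of a membrane insertase (0.48). EMC6 had 45.3% and 45.3% at 2 h in sgCNOT3, against 34.6% and 33.2% in sgNT. TM7SF2, a sterol reductase of cholesterol synthesis that overlaps VPS51, differed most on the log2 scale among these (1.93 ± 0.22, SE, adjusted p = 0.019). It had 13.0% and 12.0% at 2 h in sgCNOT3, against 2.84% and 4.05% in sgNT. At 4 h TM7SF2 had 8.93% and 10.1% in sgCNOT3, against 1.64% and 2.38% in sgNT. All 10 named genes that led the higher calls held without each library as defined above. With the middle-chase spread each passed in only 1 of the 8 fits that left out a library.

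All 4 tested mRNAs encoded by mitochondrial DNA were higher in sgCNOT3, with a median log2 difference of 1.52, against -0.07 over all genes, and all 4 held without each library. These RNAs are made and degraded inside mitochondria, apart from cytosolic CCR4-NOT. MT-ND4L, of respiratory complex I, had 37.9% and 32.5% at 2 h in sgCNOT3, against 12.0% and 13.0% in sgNT. At 4 h MT-ND4L had 23.4% and 25.7% in sgCNOT3, against 6.69% and 7.00% in sgNT (log2 difference 1.63 ± 0.17, SE, adjusted p = 0.015). MT-CO2, of cytochrome c oxidase, had 24.7% and 23.7% at 2 h in sgCNOT3, against 9.67% and 9.85% in sgNT (1.46 ± 0.19 over both times, SE, adjusted p = 0.019). No sgCNOT3 value came near the sgNT values. MT-ATP6 and MT-ATP8, which overlap each other, had log2 differences of 1.40 and 1.59, and MT-ND4L overlaps MT-ND4, so these values are not independent.

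Nuclear genes of the respiratory chain moved both ways, with 4 of 77 higher (5.19%, against 1.07% of all genes) and 7 lower (9.09%, against 2.66%). ATP5MC3, of the ATP synthase rotor, had 14.8% and 15.1% at 2 h in sgCNOT3, against 34.1% and 32.7% in sgNT. At 4 h ATP5MC3 had 12.3% and 12.5% in sgCNOT3, against 33.1% and 33.3% in sgNT (log2 difference -1.27 ± 0.13, SE, adjusted p = 0.015). UQCRC2, a core subunit of complex III, had a log2 difference of -1.45 ± 0.19 (SE, adjusted p = 0.019), with 7.15% and 6.24% at 2 h in sgCNOT3, against 21.3% and 17.4% in sgNT. The 4 higher genes were the small subunits ATP5MK, NDUFB7, NDUFV3 and UQCRQ. With the spread of 24 libraries the order of the counts changed to 24 higher (31.2%, against 4.48% of all genes) and 13 lower (16.9%, against 7.32%), of which 15 and 10 held without each library.

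Mitochondrial ribosomal proteins were also split, with 4 of 83 higher (4.82%, against 1.07% of all genes) and 3 lower (3.61%, against 2.66%). The median was 0.07, and 63.9% of members were above 0, against 42.6% of all genes. In 24 members both sgCNOT3 libraries were above both sgNT libraries at each time (28.9%, against 8.59% of all genes), and in 12 they were below (14.5%, against 11.3%). The study singled this group out in these samples, so its counts are not independent evidence of a direction. MRPS2 had 37.8% and 41.0% at 2 h in sgCNOT3, against 28.0% and 29.1% in sgNT. At 4 h MRPS2 had 32.9% and 38.3% in sgCNOT3, against 19.8% and 23.1% in sgNT (log2 difference 0.59 ± 0.11, SE, adjusted p = 0.037). It was the only 1 of the 8 members that the study assayed by qRT-PCR to be called. MRPS5 and MRPL13 were lower, by -0.83 ± 0.14 and -0.57 ± 0.097 (SE, adjusted p = 0.029 and 0.032). MRPS5 had 16.3% and 18.6% at 2 h in sgCNOT3, against 29.3% and 28.9% in sgNT. On the 24-library spread 16 were higher (19.3%, against 4.48% of all genes) and 10 lower (12.0%, against 7.32%), and 9 and 8 of them held without each library.

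Cytosolic ribosomal proteins, whose mRNAs are long-lived, gave 4 higher of 83 (4.82%, against 1.07% of all genes) and 3 lower (3.61%, against 2.66%). RPL12 had 26.8% and 25.1% at 2 h in sgCNOT3, against 12.8% and 9.78% in sgNT. At 4 h RPL12 had 25.2% and 23.7% in sgCNOT3, against 9.61% and 9.15% in sgNT (log2 difference 1.27 ± 0.17, SE, adjusted p = 0.020). RPL35 was low in every library, with 5.26% and 5.43% at 2 h in sgCNOT3, against 2.40% and 2.13% in sgNT (1.11 ± 0.15 over both times, SE, adjusted p = 0.020). Ribosomal proteins have many processed pseudogenes, and how reads shared with them were counted is not given in the sources used here. The median of the list was 0.01, and with the spread of 24 libraries 14 were higher (16.9%, against 4.48% of all genes) and 18 lower (21.7%, against 7.32%).

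Ribosome biogenesis factors had 3 of 78 higher (3.85%, against 1.07% of all genes) and 3 lower (3.85%, against 2.66%). NPM1, an abundant nucleolar chaperone, had 13.4% and 13.3% at 2 h in sgCNOT3, against 31.0% and 32.0% in sgNT. At 4 h NPM1 had 11.7% and 11.5% in sgCNOT3, against 24.6% and 26.1% in sgNT (log2 difference -1.16 ± 0.14, SE, adjusted p = 0.019). BMS1, a GTPase of small subunit assembly, had 10.8% and 6.98% at 2 h in sgCNOT3, against 28.0% and 29.2% in sgNT (-1.61 ± 0.21 over both times, SE, adjusted p = 0.019). The BMS1 replicates of sgCNOT3 differed more than those of NPM1, and both genes had groups that did not overlap.

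Immediate early and AU-rich mRNAs are short-lived, and the discordant replicates limited their comparison. Of 28 tested members, a class which CCR4-NOT adaptors are known to target, 1 was higher (3.57%, against 1.07% of all genes) and 0 lower. In 9 both sgCNOT3 libraries were above both sgNT libraries at each time (32.1%, against 8.59% of all genes), and in 0 they were below (0%, against 11.3%). The median log2 difference was 0.50 and 85.7% of members were above 0, against 42.6% of all genes. The median was 0.39 without sgCNOT3 2 h replicate 1 and 0.64 without replicate 2. DUSP1, a phosphatase that ends MAP kinase signals, had 28.0% and 43.1% at 2 h in sgCNOT3, against 12.9% and 15.2% in sgNT. At 4 h DUSP1 had 23.2% and 21.1% in sgCNOT3, against 6.67% and 6.67% in sgNT. The groups were apart (log2 difference 1.49 ± 0.21, SE, adjusted p = 0.021), but with the spread of 24 libraries DUSP1 did not pass (adjusted p = 0.18).

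Under the 24-library spread 4 other members were higher (14.3% of the list, against 4.48% of all genes), named because they were few: ID2, IER2, JUN and MYC. MYC, a growth-promoting transcription factor, had 23.6% and 32.4% at 2 h in sgCNOT3, against 15.7% and 17.7% in sgNT. At 4 h MYC had 15.9% and 13.4% in sgCNOT3, against 1.30% and 1.30% in sgNT (log2 difference 1.95 ± 0.32 with that spread, SE, adjusted p = 9.3e-04). ID2, which blocks differentiation factors, had a log2 difference of 0.83 ± 0.13 (SE, adjusted p = 8.9e-04). MYC and ID2 held without each library, whereas IER2 and JUN did not.

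Targets of the stress pathways included the largest difference of the named genes. DDIT4, an inhibitor of mTORC1, had 37.6% and 38.4% at 2 h in sgCNOT3, against 7.95% and 10.6% in sgNT. At 4 h DDIT4 had 20.3% and 13.3% in sgCNOT3, against 5.04% and 1.27% in sgNT (log2 difference 2.26 ± 0.41, SE, adjusted p = 0.036). Its values at 2 h were closer in the discordant pair than in the sgNT pair. DDIT4 held without each library as defined above, but with the middle-chase spread this difference passed in 0 of the 8 fits that left out a library. Of 27 integrated stress response targets 3 were higher (ATF4, DDIT4 and SESN2, which is 11.1%, against 1.07% of all genes). ALDH18A1 was the 1 lower member (3.70%, against 2.66% of all genes), with a log2 difference of -0.94 ± 0.15 (SE, adjusted p = 0.025). ATF4, the transcription factor at the head of that response, had 29.9% and 29.5% at 2 h in sgCNOT3, against 21.9% and 21.1% in sgNT (0.63 ± 0.12 over both times, SE, adjusted p = 0.038).

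Of 26 p53 targets 2 were higher (7.69%, against 1.07% of all genes) and 1 lower (3.85%, against 2.66%). CDKN1A, the cell cycle inhibitor p21, had 37.7% and 46.5% at 2 h in sgCNOT3, against 24.2% and 13.9% in sgNT. At 4 h CDKN1A had 37.3% and 40.9% in sgCNOT3, against 17.0% and 19.5% in sgNT (log2 difference 1.13 ± 0.19, SE, adjusted p = 0.029). The sgNT pair at 2 h was further apart here than the sgCNOT3 pair. RPS27L, a ribosomal protein homologue, was lower (-0.55 ± 0.078, SE, adjusted p = 0.021). SESN2, on both stress lists, was the other higher gene.

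In the remaining lists the fit of 8 libraries called few genes. Of 48 DNA replication genes 2 were higher (POLE3 and RPA2, 4.17%, against 1.07% of all genes) and 1 lower (RPA1, 2.08%, against 2.66%). Of 36 genes of G2 and mitosis, BUB3, of the spindle checkpoint, was higher (0.23 ± 0.047, SE, adjusted p = 0.048) and CKS1B, a partner of cyclin-dependent kinases, lower (-0.47 ± 0.076, SE, adjusted p = 0.027). Either gene was 2.78% of that list, against 1.07% of all genes higher and 2.66% lower. Of 25 genes of cholesterol synthesis TM7SF2 was the 1 called, as higher (4.00%, against 1.07% of all genes). For 15 replication-dependent histones and 18 glycolysis genes 0 were called (0%, against 3.73% of all genes). With the spread of 24 libraries 7.32% of all genes were lower and 4.48% higher. DNA replication then had 8 lower (16.7%) and 4 higher (8.33%), of which 6 and 2 held without each library. G2 and mitosis had 5 lower (13.9%) and 1 higher (2.78%), of which 2 and 1 held. Glycolysis had 3 lower (16.7%) and 2 higher (11.1%), of which 3 and 1 held. Cholesterol synthesis had 2 lower (8.00%) and 4 higher (16.0%), and the histones 0 lower and 2 higher (13.3%). Of 330 tested ZNF zinc finger genes, a family of short-lived mRNAs, 0 were called (0%, against 3.73% of all genes). Their median of replicate 1 minus replicate 2 in sgCNOT3 at 2 h was 0.90 on the log2 scale. Their median difference was 0.11, but -0.08 without sgCNOT3 2 h replicate 1, so that no direction can be read for them.

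**Figure D4:**
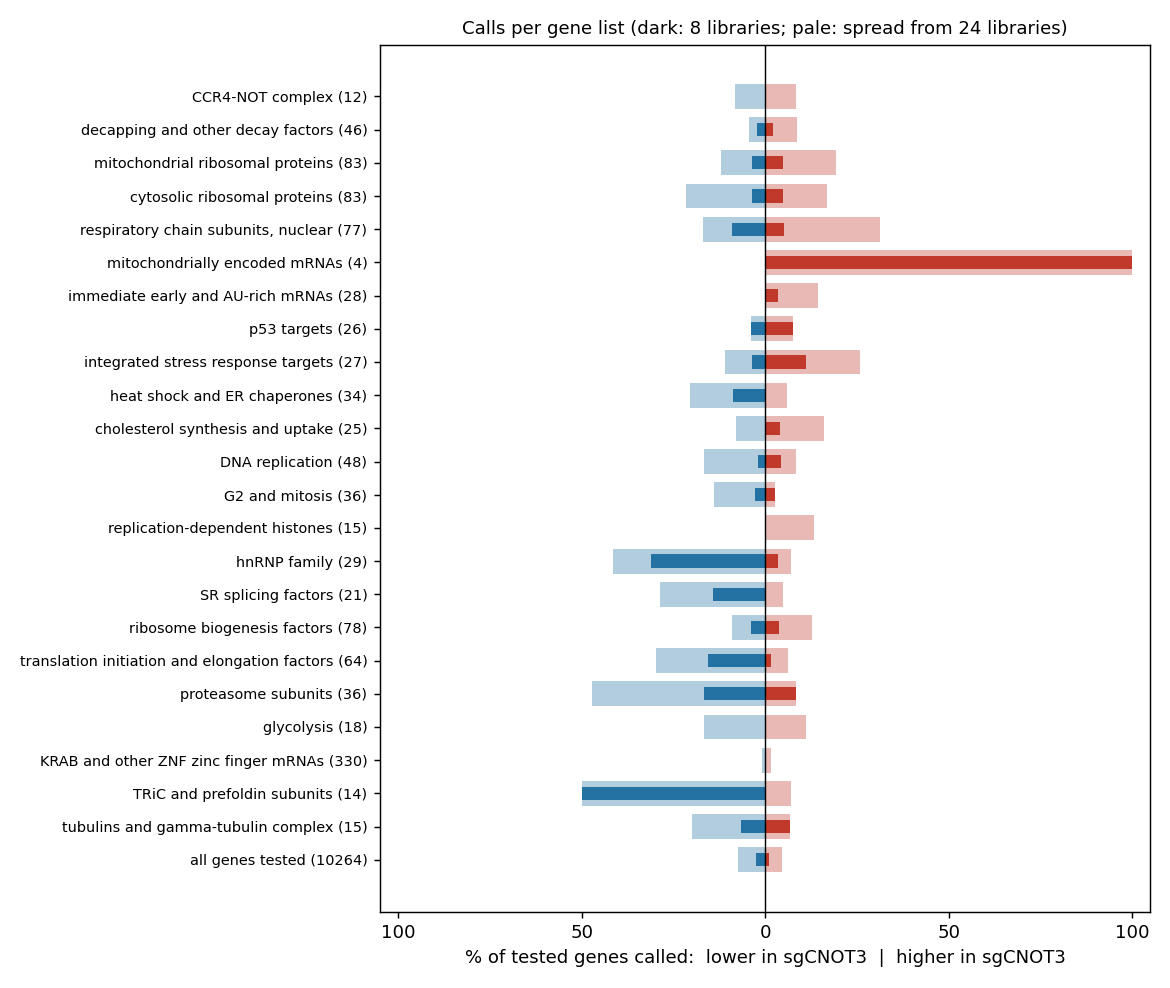
Percent of the tested genes of each list (number in parentheses) called lower in sgCNOT3 (blue, leftwards) or higher (red, rightwards); dark bars are the fit of 8 libraries and pale bars the fit with the spread of 24. TRiC and prefoldin reach 7 of 14 lower and mitochondrially encoded mRNAs 4 of 4 higher, while all genes tested reach 2.66% lower and 1.07% higher in the dark bars.

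Many of the called genes already differed when the chase began. Using the spread of 24 libraries, 95 genes were called higher at 0 h (0.926%) and 460 lower (4.48%). At 0 h 191 of the 273 lower genes and 48 of the 110 higher genes passed with the same direction, and 267 and 101 had the same sign. The medians at 0 h were -0.75 for the lower and 0.48 for the higher genes, beside middle-chase medians of -0.81 and 0.77. HNRNPH1, for example, had 10.7% and 13.8% at 0 h in sgCNOT3, against 54.2% and 51.8% in sgNT. CCT8 had 21.3% and 24.1% at 0 h in sgCNOT3, against 53.7% and 50.8% in sgNT. For such genes the difference preceded the chase. The differences at 0 h and in the middle chase come from separate libraries. The spread behind the 0 h calls came from all 24 libraries, those of the middle chase included. The counts that passed at 0 h are therefore not independent of the middle-chase calls.

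The test of that change itself, the difference at 2 and 4 h minus that at 0 and 1 h in 24 libraries, called 28 genes (0.273%), 26 higher (0.253%) and 2 lower (0.0195%). After centring 15 passed, 12 higher and 3 lower, of which 13 were among the 28. Without sgCNOT3 2 h replicate 1, 57 genes passed, 27 higher and 30 lower, of which 26 were among the 28. Of the 28, 2 were called higher and 2 lower in the middle chase itself. DDIT4 was the 1 gene of these 28 that the rule had named, and its change was 2.42 ± 0.44 on the log2 scale (SE, adjusted p = 0.035). At 0 h DDIT4 had 27.9% and 32.1% in sgCNOT3, against 38.3% and 31.7% in sgNT, which overlap. At 2 h the DDIT4 values of sgNT were far below those of 0 h, and those of sgCNOT3 were not. DDIT4 passed in 3 of the 8 fits that left out a library.

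The strongest of the 28, named after their values were seen, crossed over. GRPEL2, a nucleotide exchange factor of the mitochondrial Hsp70, had 6.62% and 8.62% at 0 h in sgCNOT3, against 42.9% and 38.2% in sgNT. At 2 h GRPEL2 had 15.3% and 15.9% in sgCNOT3, against 38.8% and 34.7% in sgNT. At 4 h it had 27.2% and 30.3% in sgCNOT3, against 26.3% and 24.9% in sgNT. Conversion of GRPEL2 in sgCNOT3 thus rose up to 4 h while the label was being chased, and at 12 h it was 19.5% and 24.4%. The change in difference was 1.72 ± 0.17 (SE, adjusted p = 4.4e-04).

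LSM1, of the Lsm ring that starts decapping, showed the same course. LSM1 had 23.0% and 16.6% at 0 h in sgCNOT3, against 67.1% and 62.5% in sgNT. At 4 h LSM1 had 49.2% and 45.5% in sgCNOT3, against 45.1% and 44.1% in sgNT (change 1.22 ± 0.12, SE, adjusted p = 4.4e-04). YTHDF2, a reader of methylated mRNA that recruits CCR4-NOT, had 17.6% and 16.7% at 0 h in sgCNOT3, against 53.2% and 49.4% in sgNT. At 4 h YTHDF2 had 33.8% and 37.6% in sgCNOT3, against 28.4% and 30.1% in sgNT. In GRPEL2, LSM1 and YTHDF2 the sgCNOT3 replicates differed by far less than the genotypes did at 0 h.

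PUS3, a tRNA pseudouridine synthase, PTRH2, a mitochondrial peptidyl-tRNA hydrolase, and RPP38, of RNase P, had changes of 2.87, 1.85 and 2.81 on the log2 scale. GRPEL2, LSM1, YTHDF2, PUS3, PTRH2 and RPP38 were called without each of the 8 middle-chase libraries and after centring. In the other direction ZKSCAN8P1 had 9.52% and 7.62% at 2 h in sgCNOT3, against 21.0% and 28.6% in sgNT (change -2.21 ± 0.25, SE). ALYREF, an mRNA export factor, changed by -0.50 ± 0.089 (SE, adjusted p = 0.032) and passed in 3 of the 8 fits that left out a library.

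**Figure D5:**
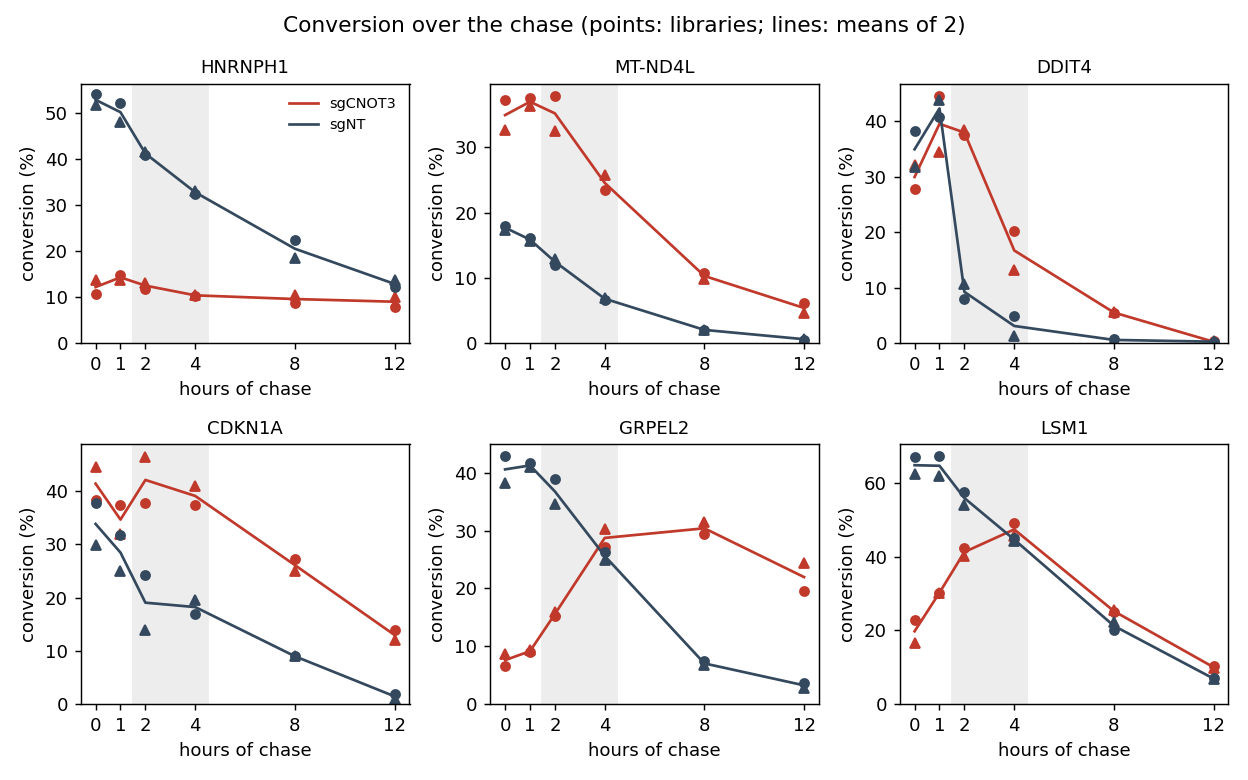
T-to-C conversion (%) against hours of chase for 6 genes, points for libraries (circles replicate 1, triangles replicate 2) and lines for the means of 2, sgCNOT3 in red and sgNT in dark blue, the middle chase shaded; each panel has its own vertical axis from 0. HNRNPH1 and MT-ND4L differ from 0 h on, DDIT4 separates at 2 h (37.6% and 38.4% against 7.95% and 10.6%), and GRPEL2 and LSM1 are lower in sgCNOT3 at 0 h and meet sgNT at 4 h.

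After the middle chase the genotypes parted. The difference at 8 and 12 h minus that at 2 and 4 h was called for 2662 genes (25.9%), higher for 2628 (25.6%) and lower for 34 (0.331%). The median over all genes was 0.64 on the log2 scale, and after centring 791 passed, 316 higher and 475 lower, so the direction of these calls rests on a shift of most genes. At 8 and 12 h themselves 4382 genes were called higher (42.7%) and 401 lower (3.91%). Of the 110 genes called higher in the middle chase, 107 passed with the same sign at 8 and 12 h. Of the 273 called lower, 157 passed with the same sign and 16 with the opposite one.

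The study asked whether the arginine codons CGG, CGA and AGG mark mRNAs for CNOT3-dependent decay. Among the 1000 tested genes with the largest share of these codons, 19 were called higher (1.90%) and 13 lower (1.30%), against 0.986% and 2.82% of 9233 other genes. The median log2 difference was 0.07, against -0.09 for the other genes. It was 0.10 at 2 h and 0.03 at 4 h, against 0.02 and -0.19 for the other genes. The 1000 genes richest in CGC, AGA and CGU shared 274 genes with the first set. Of these 1000, 23 were higher (2.30%, against 1.07% of all genes) and 42 lower (4.20%, against 2.66%), with a median of -0.002. In the 1000 richest in the codons of asparagine, lysine, isoleucine, tyrosine, phenylalanine and methionine together with the threonine codon ACU, 15 were higher and 33 lower (median -0.12). The median of replicate 1 minus replicate 2 in sgCNOT3 at 2 h was 0.13 in the CGG, CGA and AGG set and 0.36 in the other genes, so the sets also differed in how far the discordant pair disagreed, and its part in these medians was not tested.

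Features of the called genes' sequences were described without a test. The genes called higher had a median coding length of 203 codons and 3' untranslated regions of 382 bases, against 441 codons and 1407 bases over all genes tested. Their wobble positions were G or C in 71.9%, against 56.4% over all genes. The genes called lower had 430 codons, untranslated regions of 1075 bases and 47.6% G or C at wobble positions. These are descriptions of the calls, which favour stable and tightly measured mRNAs.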

How the data were processed

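The values analysed were T-to-C conversion fractions per gene and library, deposited by the authors as 1 table for all 24 libraries. Per the labels and the study's methods, 3' end libraries were prepared from alkylated RNA. The submitters' processing notes name bcl2fastq and GRCh38, while the tool that counted conversions and its strand setting were not given in those sources. The deposited fractions carry no read counts, so the depth of each library is unknown, no counting interval could be given, and a 0 may mean no converted read or no read. Fractions are printed here as percent.

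Genes above 0 in all 8 libraries of 2 h and 4 h were kept (10264). The log2 of the fraction plus 0.00342 (0.342 percentage points, 1% of the 0 h median) was fitted with limma 3.58.1 in R 4.3.3, with genotype and chase time as terms and the trend option on, with Benjamini-Hochberg adjustment across the genes kept and a threshold of 0.05. The contrasts with 0 and 1 h and with 8 and 12 h used all 24 libraries. The fit was tested on simulated data with independent noise and the same spread in every library of a gene. The simulation therefore did not hold the discordance of the sgCNOT3 pairs. Library medians were compared by an exact permutation test within chase times. Tables were made with Python 3.11.15, pandas 2.3.3, numpy 2.4.6, scipy 1.17.1 and matplotlib 3.10.9. Codons, gene positions and overlaps came from GENCODE 44, which held 19780 of 19798 genes, 472 of them matched without the version of the identifier. Guides came from the study's oligonucleotide list and were located by exact match to GRCh38.

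The genes named were CNOT3, the 10 highest and 10 lowest moderated test statistics among called genes whose groups did not overlap at either time, the same for the change from 2 h to 4 h (0 passed), and up to 2 called members of each gene list. Others named in the text are said to be exceptions, to complete a count of few, or to have been chosen after their values were seen. The members and lists were chosen with earlier results of these data known. Alternatives tried were other pseudocounts, filters, scalings, library weights, the trend option off, a replicate block, the spread of 24 libraries and each library left out. Fits of 1 chase time alone, and leaving out libraries together with the spread of the remaining 23 or 22, were chosen after seeing the data.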

Additional observations from a re-analysis of the deposited data

Results flagged for a closer look

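The difference between sgCNOT3 and sgNT at 8 and 12 h was tested against that at 2 and 4 h, and it changed for 31 of the 50 named genes (limma over 24 libraries, adjusted p under 0.05). Among all 10264 genes tested it changed for 2662 (25.9%). The named genes were chosen by their middle-chase values, which also enter this change, so their count is not independent evidence. Over all genes the median of this change was 0.64 on the log2 scale, so each value is to be read against that shift. No explanation was tested.

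Among genes called higher in the middle chase, the change was 0.70 for MT-ND4L, 1.32 for TCEAL8, 0.48 for EMC6, 1.06 for MRPS2, 1.08 for CDKN1A and 1.03 for TUBB4B. The values of TCEAL8, MRPS2, CDKN1A and TUBB4B were above the shift of all genes, and those of MT-ND4L and EMC6 lay near it.

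Among the genes with the lowest test statistics it was 0.87 for HNRNPH1, 0.36 for CCT8, 0.55 for CD9, 0.59 for CCT4, 0.27 for RBX1, 0.57 for SFPQ, 1.24 for HIBADH, 0.85 for RPA1, 0.94 for NUP93 and 0.43 for ACTG1. In mitochondrial genes and chaperones it was 1.20 for MRPS5, 0.35 for MRPL13, 0.29 for ATP5MC3, 0.41 for HSPD1 and 0.42 for HSPA9. In genes of RNA processing and translation it was 0.35 for SRSF1, 0.83 for SRSF7, 0.49 for NPM1, 1.61 for BMS1, 0.74 for EEF1E1 and 0.88 for EIF3D. It was 0.36 for PSMA1, 0.69 for PSMD3, 0.72 for RPS27L and 0.37 for TUBB. All of these had been lower in sgCNOT3, so that their differences were closer to 0, or above it, at 8 and 12 h.

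DDIT4 was singled out by the test against the start of the chase, where its difference at 2 and 4 h exceeded that at 0 and 1 h by 2.42 on the log2 scale (limma, adjusted p = 0.035).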

How the results depend on the processing

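For the difference at 2 and 4 h, where 383 genes were called, the following counts are totals over the 10264 genes tested. After centring each library 0 passed, with the 2 h or the 4 h libraries alone 0, and without the sgCNOT3 libraries numbered 2 also 0. Without those numbered 1, 103 passed, of which 54 were among the 383. With the spread of 24 libraries 1211 passed, of which 370 were among the 383. Without 1 library, 0 to 296 passed with the spread of the remaining middle-chase libraries and, with that of 23, 1363, 879, 1039 and 878 without an sgCNOT3 library and 881, 850, 848 and 869 without an sgNT library (2 h replicates 1 and 2, then 4 h). With the spread of 22, 1510 passed without both numbered 1 and 732 without both numbered 2. Pseudocounts, filters, weights and the linear scale gave 292 to 433, of which 292 to 383 were among the 383 (350 of the 433 on the linear scale). With the trend option off 378 passed, of which only 265 were among the 383.

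With the replicate number as a block 99 passed. Same-numbered sgCNOT3 libraries of 2 h and 4 h deviated together (correlation of replicate differences 0.32), the other 5 pairs did not (-0.030 to 0.022), and the numbers were not taken as pairs.

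At 2 h 1 gene passed with the filter of 6 of 8 libraries, 0 to 1 without 1 library and 432 with the spread of 24. At 4 h 3 passed with the trend option off and 773 with the spread of 24. For the change from 2 h to 4 h 1 passed with the filter of 6 of 8 libraries and 0 to 1 without 1 library. For the change from the start of the chase, 28 genes, 49 passed with a pseudocount of 1 percentage point, 15 after centring, 54 with library weights and 14 to 57 without 1 library. For the late chase, 2662 genes, 791 passed after centring (39.9% higher, against 98.7%) and 1971 to 3431 without 1 library.

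The difference of library medians, -1.15 percentage points, ran from -3.68 to 1.39 without 1 library, and only leaving out sgCNOT3 2 h replicate 2 turned it. The CNOT3 difference of -0.02 turned to 0.082 after centring, 0.60 at 2 h alone, 0.41 without both sgCNOT3 libraries numbered 2 (0.41 also with the spread of 22), and 5.59 percentage points on the linear scale. Without 1 library it ran from -0.58 to 0.30, turning positive at 0.20, 0.0086, 0.26 and 0.30, and with the spread of 23 at 0.53, 0.15, 0.098 and 0.18. Of 1600 values of the 50 named genes under these alternatives, 952 kept direction and call, 635 kept the direction alone and 13, all of CNOT3, reversed. The cause was not tested.

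Read depth is unknown, so precision rests on 2 libraries per group. The discordant sgCNOT3 pairs limit the statements on short-lived mRNAs.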
